A study of Mus musculus with 6 samples.

Results

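The genes described here are 37 antioxidant and glutathione genes of the mouse lens, chosen by function and taken from 41128 listed features. They cover glutathione synthesis and use, the peroxiredoxins and thioredoxins, the superoxide dismutases, and the transcription factor NRF2 with its inhibitor and targets. All 37 were found by symbol in each of the 6 libraries. Lenses of embryos at E15.5 were compared between a conditional knockout (cKO) of Itgb1, the gene of β1-integrin, and wild type, with 3 biological replicates in each group. The cKO lenses were homozygous for a floxed β1 allele and carried MLR10 Cre, a transgene that acts in the lens. Their strain background was mixed, and 30 lenses were pooled per replicate. The wild-type lenses were labelled C57Bl/6 in strain and genotype, and 75 were pooled per replicate. Their records repeat samples of an earlier series. Strain, the Cre transgene and the origin of the libraries therefore cannot be told apart from the loss of Itgb1 in any difference below.

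Glutathione is a tripeptide that the lens holds at an unusually high level, where it keeps protein thiols and crystallins reduced. Cystine is imported, reduced to cysteine and built into glutathione, which peroxidases and transferases then spend and glutathione reductase restores with NADPH. Peroxiredoxins and thioredoxins form a parallel system for peroxides. NRF2, encoded by Nfe2l2, binds antioxidant response elements in the promoters of many of these genes, and KEAP1 marks NRF2 for degradation.

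RefSeq promoter windows (GRCm38.p6, 250 bases before to 50 after a start) were matched by symbol for 31 of the 37 genes. The core of the antioxidant response element, TGACNNNGC, was searched on both strands, and it occurred in a window of 7 of these 31 genes. Of all 27025 genes with a window, 13.99% held the same letters, and of the 9025 among them that were tested for expression 16.9% did, so the share of 22.6% among the 31 genes is given as a description only. The 7 genes were Nfe2l2, Srxn1, Gclm, Prdx1, Txnrd1, Sod1 and G6pdx. The stretches of 4 of them are printed so that 2 genes that fell in cKO (Txnrd1 and Sod1) can be read against 2 that did not pass the test (Gclm and Prdx1). Capitals mark the match, which lies on the strand opposite to the gene in all 4, so the printed letters are its reverse complement. The stretches of Txnrd1, Sod1, Gclm and Prdx1 are at chr10:82859094-82859142, chr16:90220686-90220734, chr3:122245403-122245451 and chr4:116685446-116685494, each written along its plus-strand gene.
Txnrd1: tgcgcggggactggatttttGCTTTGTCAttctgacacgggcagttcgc
Sod1: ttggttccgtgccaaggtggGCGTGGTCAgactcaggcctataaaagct
Gclm: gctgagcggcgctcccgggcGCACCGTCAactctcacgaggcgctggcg
Prdx1: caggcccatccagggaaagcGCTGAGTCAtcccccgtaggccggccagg
The Prdx1 match is the longer form TGACTCAGC, which 0.503% of all genes with a window held and which is one case of the letters searched above. The Txnrd1 window belongs to a start inside the gene. A match is a run of letters and not a measured binding site.

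Expression is given as CPM, the reads of a gene scaled to the reads counted in its library, and, for levels compared between genes, as RPKM, which is CPM per kilobase of gene. The cKO libraries held 20036554 to 28095318 reads and the wild-type libraries 10023049 to 11531139, so 1 read was worth 0.0356 to 0.0998 CPM. Differences were tested with limma on log2(CPM + 1) over 11941 genes, and a gene was called where its p, adjusted over all of them by Benjamini-Hochberg, was under 0.05. Fold changes are on that log2 scale, cKO against wild type, and understate the change of low genes. Itgb1 itself stood at 236, 275 and 262 CPM in cKO replicates 1, 2 and 3 and at 402, 424 and 448 CPM in wild type (-0.72, adjusted p = 1.63e-05 by limma). These values count the whole gene over all cells of a pool. RNA from parts outside the deletion, or from cells without it, would be included, and neither share was tested. The lens fiber markers summed to 183250 to 208500 CPM in cKO and 192180 to 207970 CPM in wild type, and the epithelial ones to 953 to 1126 CPM against 966 to 1054 CPM, with the epithelial marker Sox2 listed at 0 in all 6 libraries. These sums hold genes that went both ways. Of 5 tested epithelial markers Cdh1 was higher (0.46) and Foxe3 (-0.37) and Pdgfra (-0.28) were lower, and of 8 fiber markers Maf was higher (0.50) and Mip lower (-0.21), while most of the fiber sum is Cryaa. Of all genes tested, 20.9% were higher in cKO and 15.9% lower, and the counts of markers are read beside these shares. Of the markers of other cells, 10 of 12 endothelial genes were higher in cKO and the other 2 not called. Endothelial sums were 232 to 276 CPM against 141 to 173.5 CPM, and no endothelial marker was at 0. Macrophage markers had 7 of 8 tested higher (25.9 to 35.5 against 10.5 to 14.6 CPM), pericyte markers 4 of 6 higher and 1 lower (143 to 167 against 102 to 129.8 CPM), and erythroid markers 3 of 8 higher and 1 lower (426 to 672 against 269 to 304 CPM). Of 6 tested periocular mesenchyme markers 4 were higher and 1 lower (201 to 241 against 211 to 254 CPM), with Foxc2 at 0. Most of that sum is Pdgfra, which is also an epithelial marker here and was the lower one. The other 10 periocular genes summed to 50.2, 53.2 and 34.0 CPM in cKO and to 17.4, 21.0 and 18.9 CPM in wild type. None of the macrophage, pericyte or erythroid markers found was at 0 in all libraries. The part of these cells in the results below was not tested, and in such pools fewer cells of a type and less RNA per cell cannot be told apart.

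Of the 37 genes, 36 reached at least 1 CPM in at least 3 libraries and were tested, and 2 rose while 11 fell in cKO. Slc7a11, the cystine importer, was the farthest down at -1.33, and Gpx8, a peroxidase of the endoplasmic reticulum, was the farthest up at 0.88. The share called was 36.1%, against 36.9% of all genes tested, so the number of changes was near the background. By direction, 5.56% of the 36 were higher, against 20.9% of all genes, and 30.6% were lower, against 15.9% of all genes. The split over all genes depends on the scaling: with RLE size factors 19.8% of all genes were higher and 20.4% lower, and after a GC and gene length correction 16.2% and 18.4%, while 2 of the 36 genes were higher in both and 12 and 11 lower. The count of lower genes was 7 without cKO replicate 3, and the count of higher genes was 4 without wild-type replicate 1 and 1 with a filter at a mean of 5 CPM. The groups did not overlap in 18 of the 36 genes (50.0%), against 48.1% of all genes. The median log2 fold change was -0.04, against 0.03 over all genes tested. The 37 genes together took 2678, 2593 and 2598 CPM in cKO and 3014, 2913 and 2884 CPM in wild type, so every cKO sum lay below every wild-type sum.

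**Figure D1:**
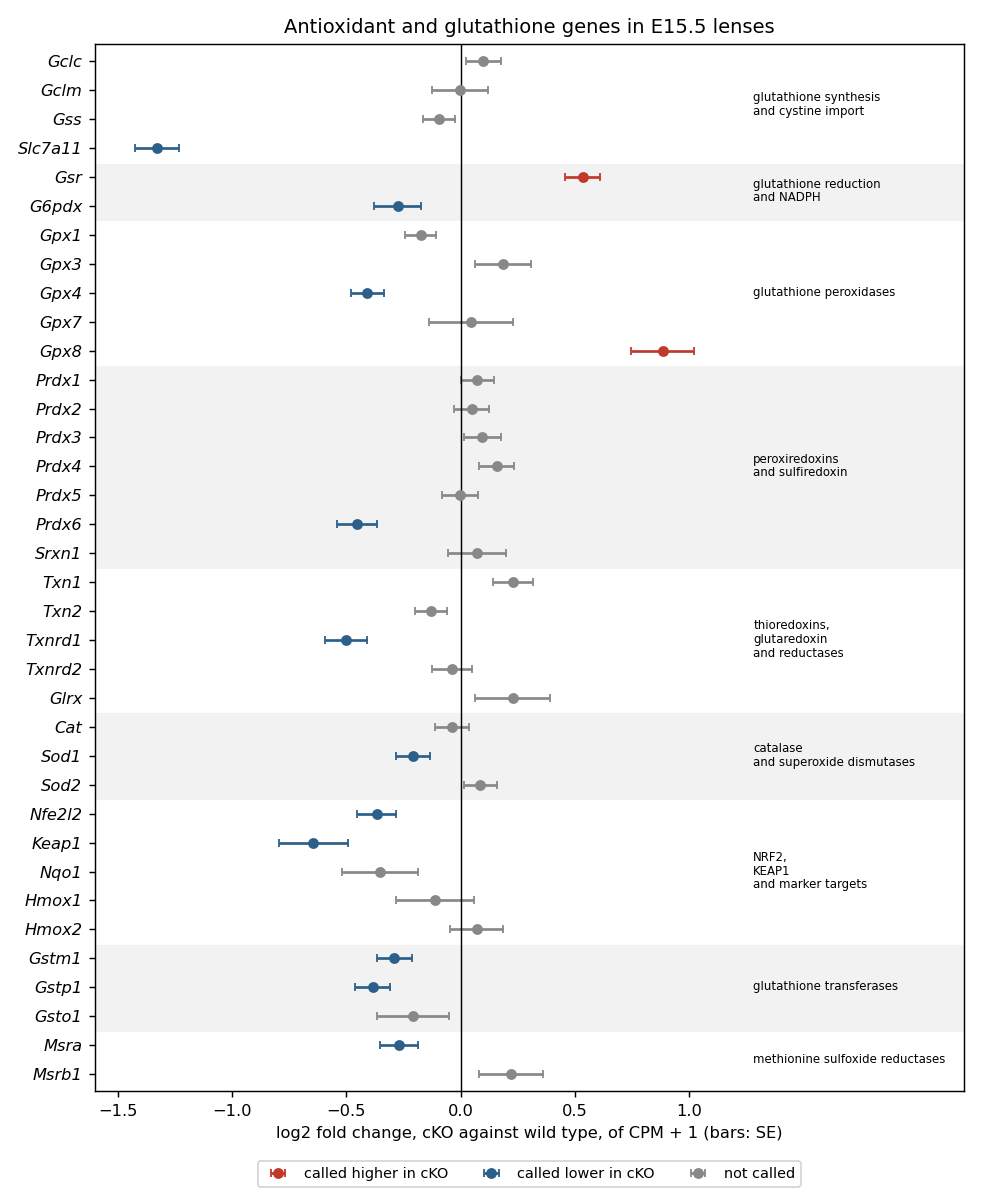
Log2 fold change of CPM + 1, cKO against wild type (x axis), of the 36 tested genes (y axis), grouped by role, with the standard error as bars and 3 libraries per group. Slc7a11 stands alone near -1.33, 2 genes are called higher (Gsr and Gpx8), 11 are called lower, and most peroxiredoxins lie close to 0.

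Per kilobase, Gpx1, a selenium-dependent peroxidase of the cytosol, had the highest level in wild-type lenses, at 397 RPKM (386 to 407). Gstp1, a glutathione transferase, followed at 338 RPKM, Sod1, the copper-zinc superoxide dismutase, at 206 RPKM and Gstm1 at 113 RPKM, and the ranges of these 4 genes did not overlap. Prdx2 (89.7 RPKM) and Txn1 (87.5 RPKM) came next, and their ranges over the 3 wild-type libraries overlapped, as did those of Prdx1 (72.1 RPKM) and Gpx4 (65.9 RPKM). Gpx1, Gstp1 and Sod1 were also the first 3 in cKO, at 351, 259 and 178 RPKM. At the other end, Glrx, a glutaredoxin, was at 0.670 RPKM and Gpx7 at 0.971 RPKM in wild type. Sod3, the extracellular dismutase, was not tested. It had 0 of 11531139 reads in wild-type replicate 1, which allows a level of up to 0.26 CPM for counting error only. It was at 0.263 and 0.299 CPM in the other wild-type libraries and at 0.299, 0.495 and 0.463 CPM in cKO, all on at most 13 reads.

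**Figure D2:**
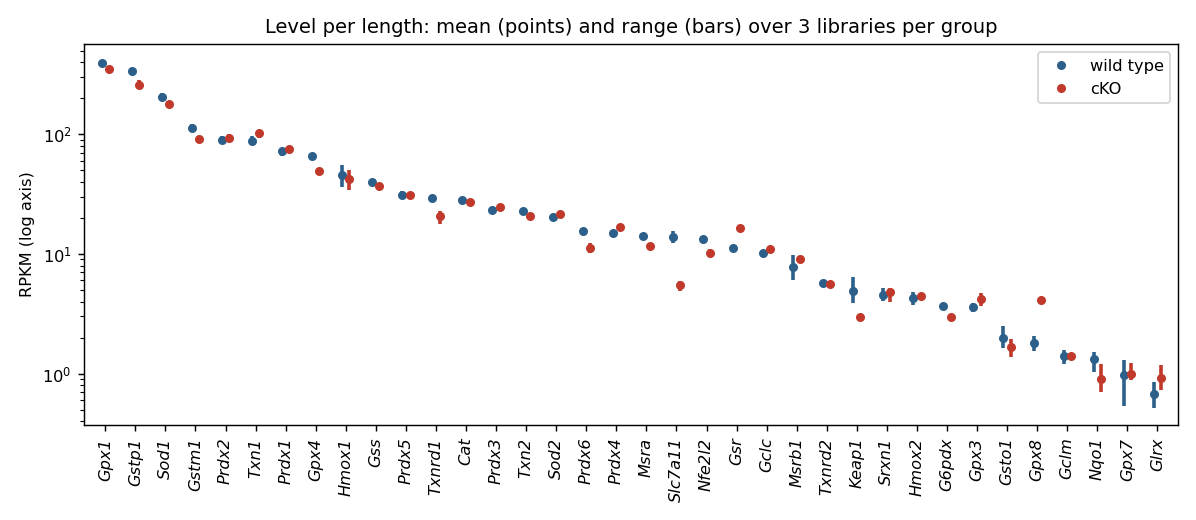
Level per length (RPKM, log y axis) of the 36 tested genes (x axis, ordered by the wild-type mean), with points for the mean and bars for the range over 3 libraries per group. The levels run from 397 RPKM for Gpx1 to 0.670 RPKM for Glrx in wild type, and the cKO points of Slc7a11, Gsr and Gpx8 stand clear of the wild-type ones.

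Within glutathione synthesis, the importer fell and the synthetic enzymes did not pass the test. Slc7a11 (ENSMUSG00000027737; GRCm38 chromosome 3, 49892526 to 50443614, minus strand) encodes the transport chain of the antiporter that brings in cystine in exchange for glutamate. It stood at 55.3, 67.4 and 61.4 CPM in cKO and at 138, 155 and 175 CPM in wild type. Every cKO library was far below every wild-type library, and the ratio of the means was 0.393. The means were 61.4 ± 6.04 and 156 ± 18.7 CPM (SD, n = 3 each), which gave a log2 fold change of -1.33 (SE 0.0974, adjusted p = 5.37e-07 by limma). Slc7a11 was the only 1 of the 36 genes called with a change of 2-fold or more on the log2(CPM + 1) scale, which 2.46% of all genes tested showed.

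Gclc and Gclm encode the catalytic and modifier subunits of glutamate-cysteine ligase, the rate-limiting enzyme of glutathione synthesis. Gclc was at 35.4, 37.4 and 39.0 CPM in cKO and 35.2, 34.7 and 34.2 CPM in wild type (log2 fold change 0.10, SE 0.0781, adjusted p = 0.344 by limma). Gclm was at 7.14, 8.01 and 8.12 CPM in cKO and 6.68, 7.98 and 8.78 CPM in wild type (log2 fold change -0.0039, SE 0.123, adjusted p = 0.984 by limma). The groups overlapped for Gclm, whereas the cKO values of Gclc lay just above those of wild type. Gss, which encodes the synthetase that completes the tripeptide, averaged 219 ± 6.92 CPM in cKO against 234 ± 11.3 CPM in wild type (adjusted p = 0.312 by limma).

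The enzyme that restores glutathione rose while a source of its NADPH was at the edge of the threshold. Gsr (ENSMUSG00000031584; chromosome 8, 33652523 to 33698163, plus strand) encodes glutathione reductase and stood at 43.1, 45.9 and 47.0 CPM in cKO against 31.1, 30.4 and 31.4 CPM in wild type. The 3 wild-type values lay close together, and all 3 cKO values were above them. The difference was 0.53 on the log2 scale (SE 0.0775, adjusted p = 0.000212 by limma). G6pdx, which encodes glucose-6-phosphate dehydrogenase, the entry enzyme of the pentose phosphate pathway, was at 9.03, 9.65 and 8.83 CPM in cKO and 10.8, 11.2 and 11.97 CPM in wild type. It was called lower (-0.28, adjusted p = 0.0499 by limma), and it lost that call when any 1 of the 6 libraries was left out and under 6 other alternatives. Of its 32-base sequence words, 23.1% occur in transcripts of other genes, and the 2 listed genes holding most of these (Ikbkg and G6pd2) took 35.7 CPM in cKO against 33.8 CPM in wild type.

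The glutathione peroxidases went both ways. Gpx8 (ENSMUSG00000021760; chromosome 13, 113042753 to 113046410, minus strand) was at 4.24, 3.91 and 4.41 CPM in cKO and 2.08, 1.58 and 1.80 CPM in wild type, on 18 to 124 reads. The cKO mean was 2.30 times the wild-type mean on the CPM scale, a difference of 0.88 on the log2 scale (SE 0.136, adjusted p = 0.00032 by limma). Gpx4, which encodes the peroxidase that reduces lipid hydroperoxides in membranes, was at 90.1, 81.2 and 84.9 CPM in cKO and 116, 109 and 115 CPM in wild type. All 3 cKO values were below all wild-type values (log2 fold change -0.41, SE 0.0733, adjusted p = 0.000923 by limma). Of the words of Gpx4, 38.7% are shared with transcripts of other genes, and it had 0 listed genes holding at least 10% of them.

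Gpx1 was at 379, 365 and 353 CPM in cKO and 414, 402 and 424 CPM in wild type, groups that did not overlap. Its log2 fold change of -0.18 missed the threshold (SE 0.0667, adjusted p = 0.0545 by limma), and 7 of 17 alternatives called it lower, edgeR among them (adjusted p = 0.0336 by edgeR, with a range over the alternatives of 0.0258 to 0.216). Gpx3, a secreted form, was at 7.56 ± 0.911 and 6.52 ± 0.614 CPM in cKO and wild type, and Gpx7 at 1.29 ± 0.254 and 1.25 ± 0.502 CPM. Neither passed the test (adjusted p = 0.266 and 0.874 by limma).

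Of the 6 peroxiredoxins, only Prdx6 passed the test. Prdx6, which uses glutathione to reduce phospholipid peroxides, was at 37.2, 45.3 and 41.4 CPM in cKO and 59.1, 57.5 and 53.9 CPM in wild type. The groups did not overlap (-0.46 on the log2 scale, SE 0.0872, adjusted p = 0.00144 by limma). The others did not pass the test. Prdx2 was at 304, 278 and 266 CPM in cKO and 293, 274 and 254 CPM in wild type, and Prdx1 at 236, 226 and 228 CPM and 232, 224 and 201 CPM. Both overlapped between the groups, whereas the cKO values of Prdx4 all lay above those of wild type. Prdx1, Prdx2, Prdx3, Prdx4 and Prdx5 had log2 fold changes of 0.07, 0.05, 0.095, 0.16 and -0.0022, with adjusted p of 0.134 to 0.986 by limma. After a GC and gene length correction, the values of Prdx1, Prdx3 and Prdx5 changed sign. Prdx2 and Prdx5 did so without cKO replicate 1, Prdx2 also without wild-type replicate 3 and Prdx5 without wild-type replicate 1. Srxn1, which repairs over-oxidised peroxiredoxins, was at 13.5 ± 2.00 and 12.8 ± 1.69 CPM (adjusted p = 0.697 by limma).

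In the thioredoxin system the cytosolic reductase fell. Txnrd1 (ENSMUSG00000020250; chromosome 10, 82833951 to 82897712, plus strand), the selenoprotein that reduces thioredoxin with NADPH and whose promoter stretch is printed above, was at 61.1, 77.5 and 75.1 CPM in cKO. Its wild-type values were 99.5, 97.2 and 105 CPM, all above those of cKO (log2 fold change -0.50, SE 0.0917, adjusted p = 0.00106 by limma). Its mitochondrial counterpart Txnrd2 averaged 18.7 ± 0.572 CPM in cKO against 19.2 ± 0.932 CPM in wild type (adjusted p = 0.771 by limma). Cytosolic thioredoxin, Txn1, was at 114, 111 and 98.1 CPM in cKO and 102, 85.6 and 88.4 CPM in wild type. The groups overlapped and it did not pass the test (0.23, adjusted p = 0.0554 by limma), but it was called higher without cKO replicate 3 (log2 fold change 0.29) or wild-type replicate 1 (0.30) and with the replicate block. After a GC and gene length correction the value of Txn1 was 0.0636 (adjusted p = 0.474 by limma). Mitochondrial Txn2 was at 87.4 ± 1.03 and 95.9 ± 3.68 CPM (adjusted p = 0.162 by limma), and Glrx at 1.23 ± 0.323 and 0.902 ± 0.223 CPM (adjusted p = 0.306 by limma).

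Cat encodes catalase, which breaks down hydrogen peroxide in peroxisomes. It was at 70.9, 75.1 and 68.1 CPM in cKO and 72.6, 72.3 and 74.8 CPM in wild type (-0.04, SE 0.0737, adjusted p = 0.721 by limma), with overlapping groups. Sod1 was at 115, 112 and 118 CPM in cKO and 143, 124 and 132 CPM in wild type. It was called lower (-0.21, SE 0.0747, adjusted p = 0.0407 by limma), with no overlap between groups, but it lost the call on leaving out any library but wild-type replicate 2, and with no filter on low values. After a GC and gene length correction its value was -0.39. Sod2, the mitochondrial form, averaged 82.8 ± 2.42 CPM in cKO against 78.0 ± 2.65 CPM in wild type (adjusted p = 0.382 by limma), with 26.3% of its words shared.

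Both the transcription factor and its inhibitor fell. Nfe2l2 (ENSMUSG00000015839; chromosome 2, 75675513 to 75704641, minus strand) was at 41.8, 35.6 and 38.9 CPM in cKO and 47.7, 53.0 and 50.0 CPM in wild type. The groups were separate (-0.37 on the log2 scale, SE 0.0848, adjusted p = 0.00447 by limma). Keap1 (ENSMUSG00000003308; chromosome 9, 21229730 to 21239361, minus strand) was at 12.3, 13.9 and 13.3 CPM in cKO and 17.5, 18.8 and 28.7 CPM in wild type. The groups did not overlap, and wild-type replicate 3 was far above the other wild-type libraries. On the log2 scale the difference was -0.64 (SE 0.152, adjusted p = 0.00597 by limma), and -0.43 without that library, where the call held (adjusted p = 0.00695 by limma, in a range over the alternatives of 1.18e-05 to 0.0256).

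Nqo1 and Hmox1, both widely used as readouts of NRF2, were not called. Other known targets among the 36 genes went different ways, as given in their places. Slc7a11, Txnrd1, Gstm1, Gstp1, Prdx6 and G6pdx were called lower, with G6pdx at the edge of the threshold. Gclc, Gclm, Srxn1 and Prdx1 were not called, and Gsr was called higher. These names do not cover every known target. Nqo1, a quinone reductase, was at 1.30, 1.09 and 1.85 CPM in cKO and 2.25, 2.37 and 1.60 CPM in wild type, on 16 to 52 reads. The groups overlapped (-0.35, adjusted p = 0.116 by limma), and it was called lower without wild-type replicate 3 and with correction for GC content and length. Hmox1, which encodes the inducible heme oxygenase, was at 92.9, 73.6 and 108 CPM in cKO and 99.4, 120 and 78.3 CPM in wild type. Its libraries varied widely within both groups (-0.11, SE 0.171, adjusted p = 0.637 by limma), and its sign changed without cKO replicate 2 or wild-type replicate 2. Macrophages are a known source of Hmox1, and their markers were higher in cKO as given above. The part of these cells in the Hmox1 values was not tested. Constitutive Hmox2 was at 9.93 ± 0.466 and 9.46 ± 1.22 CPM (adjusted p = 0.669 by limma), with 45.8% of its words shared.

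Of the 3 transferases that join glutathione to other molecules, the 2 abundant ones fell. Gstp1 was at 214, 180 and 195 CPM in cKO and 264, 249 and 255 CPM in wild type (-0.39, SE 0.0768, adjusted p = 0.00183 by limma). Of its words 38.3% are shared, and its close copy Gstp2 took 15.0 CPM in cKO against 14.2 CPM in wild type. Gstm1 was at 131, 131 and 123 CPM in cKO and 170, 157 and 146 CPM in wild type (-0.29, SE 0.0763, adjusted p = 0.00948 by limma). Neither gene had overlapping groups, the Gstm1 call was lost without cKO replicate 3, and 28.2% of the words of Gstm1 are shared. Gsto1 was at 3.25 ± 0.552 and 3.94 ± 0.903 CPM (adjusted p = 0.329 by limma). Msra, which repairs oxidised methionine, was at 22.3, 21.9 and 21.1 CPM in cKO and 25.1, 27.2 and 27.2 CPM in wild type (-0.27, adjusted p = 0.0224 by limma), with separate groups. Leaving out cKO replicate 3, wild-type replicate 2 or wild-type replicate 3 ended the call of Msra. Msrb1, the selenoprotein form for the other methionine sulfoxide isomer, was at 11.3 ± 0.795 and 9.73 ± 2.30 CPM (adjusted p = 0.242 by limma), and was called higher without wild-type replicate 1.

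**Figure D3:**
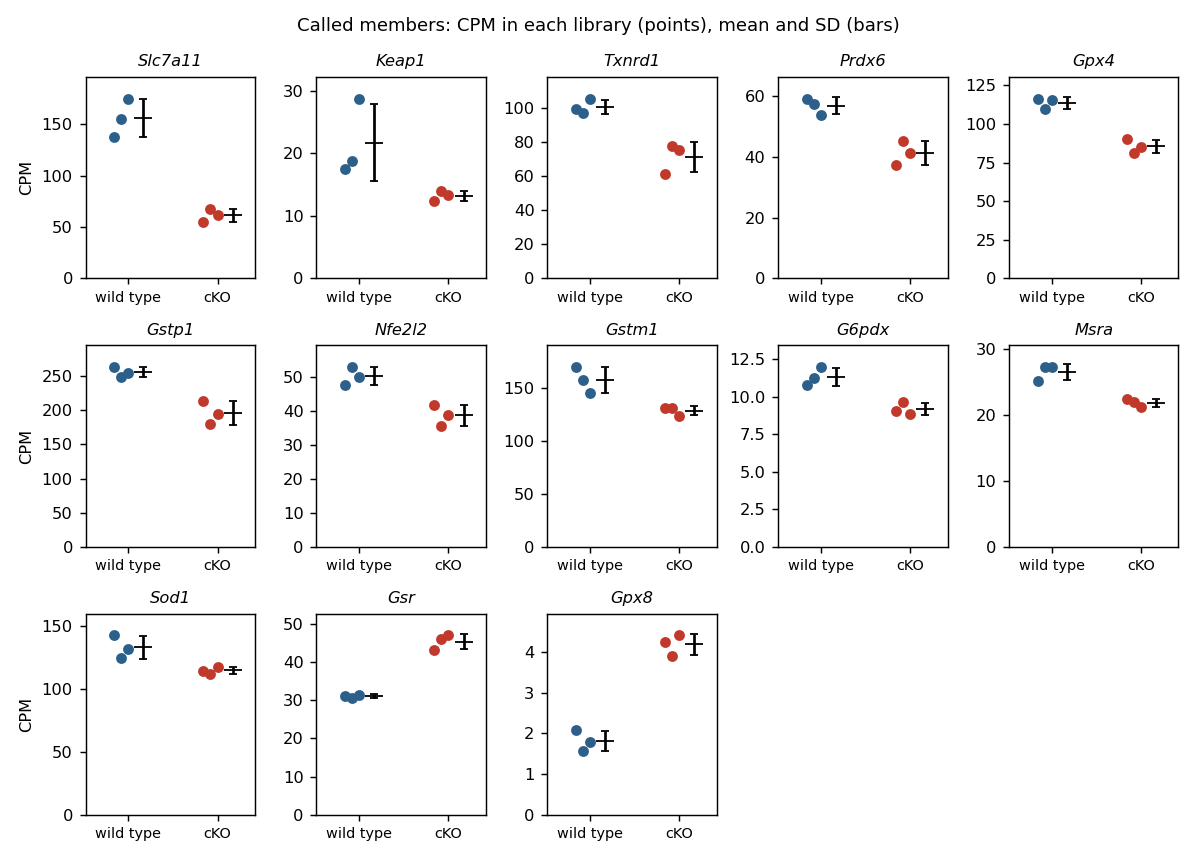
CPM (y axis, from 0) of the 13 called genes in each library (points), with the mean and SD beside them, ordered from the lowest to the highest fold change. In each of the 13 panels the 3 cKO points and the 3 wild-type points do not overlap. The genes were chosen by their call on these same values, so the separation is not further support. For Keap1 the spread in wild type comes from 1 library at 28.7 CPM.

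The genes that feed this system were read from further lists. The NADPH supply list had 11 of 14 tested genes lower (78.6%, against 15.9% of all genes) and 1 higher (7.14%, against 20.9%). The count of lower genes was 8 without cKO replicate 3 and 10 without wild-type replicate 2. The list had a median log2 fold change of -0.41, against 0.03 over all genes tested. Its 15 genes summed to 1156 to 1209 CPM in cKO and 1591 to 1648 CPM in wild type. Tkt, the transketolase of the pentose phosphate pathway, was at 351, 362 and 362 CPM in cKO and 628, 605 and 625 CPM in wild type. The values were tight within each group and wide apart between them (-0.79, SE 0.0647, adjusted p = 1.55e-06 by limma). Pgls, the lactonase that follows glucose-6-phosphate dehydrogenase, averaged 43.6 ± 3.57 CPM in cKO against 71.9 ± 1.87 CPM in wild type (-0.71, adjusted p = 2.74e-05 by limma), with 19.5% of its words shared. Idh1, the cytosolic isocitrate dehydrogenase, was the 1 gene of the list called higher (0.24, adjusted p = 0.0157 by limma), while its mitochondrial relative Idh2 was lower (-0.52). They were singled out after their values were seen. Leaving out cKO replicate 2 or wild-type replicate 2 ended the Idh1 call, as did correction for GC content and length. Nnt, the mitochondrial transhydrogenase gene known to be disrupted in the C57BL/6J substrain and also named after its values were seen, was at 65.2 to 75.2 CPM in wild type and 54.0 to 61.1 CPM in cKO (-0.29, adjusted p = 0.0151 by limma), with 47.8% of its words shared.

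**Figure D4:**
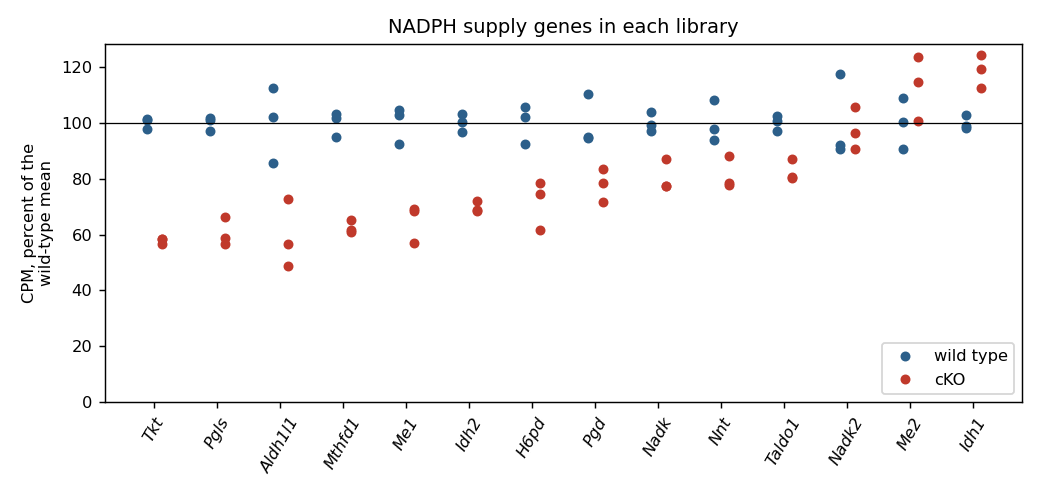
CPM of the 14 tested NADPH supply genes in each library, as percent of the wild-type mean of the gene (y axis, from 0). The cKO points of 11 genes lie below all wild-type points, Idh1 lies above, and Nadk2 and Me2 overlap. Groups without overlap make up 85.7% of these genes, against 48.1% of all genes tested.

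Among genes of glutathione and cysteine supply, 6 of 14 tested were lower (42.9%, against 15.9% of all genes) and 2 higher (14.3%, against 20.9%). Ggt1, which encodes the gamma-glutamyl transferase that breaks down extracellular glutathione, was at 12.4, 11.7 and 11.5 CPM in cKO and 22.5, 23.2 and 22.5 CPM in wild type (-0.89, adjusted p = 9.81e-06 by limma). Ahcy, which frees homocysteine, had the lowest log2 fold change of the list at -1.78 (adjusted p = 7.06e-06 by limma). It shares 71.3% of its words, and 3 listed copies were at 0 CPM in wild type and 3.53 CPM in cKO while Ahcy itself was at 9.75 and 2.15 CPM, so its value is uncertain. The enzymes that make cysteine from homocysteine, Cbs (-0.95) and Cth (-1.09, and -1.79 by edgeR), also fell, both named after their values were seen. Among the higher genes was Chac1, which degrades glutathione and had widely spread values of 11.5, 4.75 and 7.62 CPM in cKO and 0.26, 1.05 and 3.99 CPM in wild type, from 3 reads upward. It is named after its values were seen. Chac1 (1.86, adjusted p = 0.0448 by limma) kept its call in only 6 of 16 alternatives, edgeR and DESeq2 not among them. The count of higher genes was 0 without cKO replicate 1 or 3, after the GC and length correction and with limma-voom, edgeR or DESeq2. It was 1 without any 1 of the wild-type libraries, with TMM or RLE scaling, a filter at a mean of 5 CPM, a pseudocount of 0.1 or the replicate block.

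Of 13 other glutathione transferases tested, 3 were lower and 1 higher, so that 30.8% were called against 36.9% of all genes, which is not above the background. Gstm6 fell by 0.63 and Gstm7 by 0.38 (adjusted p = 0.000325 and 0.00257 by limma), both near Gstm1 on chromosome 3. In the same region Gstm2 was lower (-0.63), while Gstm4 and Gstm5 were not called (0.107 and 0.112, adjusted p = 0.488 and 0.304 by limma). Gstm2, Gstm4 and Gstm5 are named after their values were seen. The higher one, named after its value was seen, was Mgst1 at 0.39, and the count of higher genes was 0 on leaving out any library but wild-type replicate 1, and 2 without that one. It was also 0 with no filter, with a filter at a mean of 5 CPM, after the GC and length correction and with limma-voom, edgeR or DESeq2. Gsta1, Gsta2 and Gstt3 were listed at 0 in all 6 libraries.

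The partners of NRF2 had 3 of 11 tested higher and 1 lower, and the 36.4% called was near the 36.9% of all genes. Btrc, a ubiquitin ligase adaptor that also acts on NRF2, fell by 0.61 (adjusted p = 5.23e-05 by limma). Cul3, the scaffold of the KEAP1 ligase, was at 509, 530 and 533 CPM in cKO and 411, 429 and 419 CPM in wild type (0.32, adjusted p = 0.00215 by limma), but stood at -0.0142 after the GC and length correction. The lower count was 2 without cKO replicate 2 and with TMM or RLE scaling, the replicate block, limma-voom, edgeR or DESeq2. Of 12 other NRF2 targets tested, 3 were lower and 1 higher (33.3% called, also near the background), the latter 0 without wild-type replicate 2. The lower count of these targets was 2 without any 1 of the wild-type libraries or with a filter at a mean of 5 CPM. It was 4 with no filter. Ftl1, the ferritin light chain, was at 107, 128 and 123 CPM in cKO and 237, 238 and 216 CPM in wild type (-0.94, adjusted p = 2.52e-06 by limma), with 63.8% of its words shared and its 5 listed copies at no more than 0.0166 CPM in either group. Akr1b8, an aldo-keto reductase, was at -1.37 (adjusted p = 0.00435 by limma).

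Of the other selenoproteins and the factors that make them, 7 of 16 were higher (43.8%, against 20.9% of all genes) and 3 lower (18.8%, against 15.9%). Sepp1, the selenium carrier, was at 13.4, 13.8 and 13.6 CPM in cKO and 6.24, 5.44 and 5.19 CPM in wild type (1.14, adjusted p = 5.85e-06 by limma), with 15.0% of its words shared. Vimp, a selenoprotein of the endoplasmic reticulum, rose by 0.45 (adjusted p = 0.000884 by limma). The number higher was 4 or 5 whichever library was left out, 4 with DESeq2, and 5 with limma-voom or a filter at a mean of 5 CPM. With TMM or RLE scaling, no filter, thinned reads or edgeR it was 6, and it stayed at 7 with a pseudocount of 0.1 or the replicate block. After the GC and length correction it was 3 of 16, in a setting where 16.2% of all genes were higher, so most of the excess was not seen there. The lower count was 1 to 3 over the fits with a library left out, the 1 being without cKO replicate 3. It was 2 with thinned reads or after the GC and length correction. Endothelial and macrophage markers were also higher in the same libraries, and the part of these cells in the selenoprotein values was not tested. Other redoxins and reductases had 5 of 17 higher and 1 lower, and the 35.3% called was near the 36.9% of all genes. Txnl1 was at 0.27 and Msrb3 at 0.33 (adjusted p = 0.0160 and 0.0227 by limma). Leaving out cKO replicate 3 or wild-type replicate 3 ended both calls, and that of Msrb3 was also lost on leaving out cKO replicate 2, after the GC and length correction, with thinned reads and with DESeq2. The number higher fell to 0 on leaving out cKO replicate 3, and was 2 on leaving out cKO replicate 2 or wild-type replicate 2 or 3, 3 on leaving out replicate 1 of either group, 3 with RLE scaling, no filter or thinned reads, 2 with DESeq2 and 1 with correction for GC content and length, where Txnl1 was at -0.0071. Leaving out cKO replicate 2, cKO replicate 3 or wild-type replicate 2 gave 0 lower genes, and the count was 2 with TMM or RLE scaling, the replicate block, limma-voom, edgeR, DESeq2 or correction for GC content and length. Of the oxidant-producing enzymes, 3 of 6 tested were higher (50.0%, against 20.9% of all genes) and the other 3 not called, with the NADPH oxidase gene Nox4 at 0.51 (adjusted p = 0.00748 by limma), and at 0.26 with correction for GC content and length, where the call was lost. That count was 1 on leaving out cKO replicate 3 or wild-type replicate 2, with a filter at a mean of 5 CPM and after the same correction, and 1 gene was lower after it.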

How the data were processed

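Poly(A) RNA of pooled lenses was sequenced single-end after TruSeq v2 preparation, per the labels' protocols, a kit that does not mark strand. Each deposited file gives the authors' CPM and RPKM values, per the file headers, and the submitters' processing notes name edgeR and GRCm38. The aligner, counter and annotation were not given in the sources used here. CPM values were whole multiples of 1 read (within 0.02 reads, 100% of values in each library), and reads were recovered for count tests. Groups came from the sample titles. limma 3.58.1 (trend, robust, group only) was fitted to log2(CPM + 1) of genes that reached 1 CPM in 3 or more libraries, and the procedure was tested on simulated data. The 17 alternatives were edgeR 4.0.16, DESeq2 1.42.0 and limma-voom on the recovered reads, TMM or RLE scaling, a pseudocount of 0.1, no filter, a filter at a mean of 5 CPM, a replicate block, a loess correction for GC content and gene length within each library, reads thinned to 10023049 per library, and each of 6 libraries left out. Coordinates came from GENCODE M21 and promoters from RefSeq. Shared words are 32-base stretches of a gene's GENCODE transcripts found, on either strand, in those of another gene, and copies are listed genes holding at least 10% of them. Of 201 further list genes, 200 were found. Values per library are given for called genes and 12 key genes. Named from each further list were up to 2 called genes with the smallest adjusted p, some with values per library, and values of Prdx1, Prdx2, Txn1 and Chac1 were added after they were seen. Some list genes are not reported here. The genes and lists were chosen with earlier results of these data known, and no protein sequence was used here. Replicates are pools that the labels call biological, so p-values measure the spread between pools.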

Additional observations from a re-analysis of the deposited data

How the results depend on the processing

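Of the 13 called genes, 9 kept their call and direction in each alternative that tested them (Slc7a11, Gsr, Gpx4, Gpx8, Prdx6, Txnrd1, Nfe2l2, Keap1 and Gstp1), out of 17 alternatives. The other 4 (G6pdx, Sod1, Gstm1 and Msra) kept their direction and lost the call in some. The count of higher genes was 1 with a filter at a mean of 5 CPM, which left Gpx8 untested, and 2 to 4 when 1 library was left out. The count of lower genes was 7 to 9 when 1 library was left out, and the median log2 fold change was then between -0.0718 and -0.0166. That median was -0.0714 with RLE size factors and -0.0816 with thinned reads. Of the 103 genes tested over all other lists together, 23 were higher (22.3%, against 20.9% of all genes) and 28 lower (27.2%, against 15.9%). The higher count was 8 after a GC and gene length correction, 13 with DESeq2 and 11 to 19 when 1 library was left out. In these settings 16.2%, 16.5% and 14.6% to 20.3% of all genes were higher, and the cause was not tested. With correction for GC content and length the sign turned for Prdx1 (-0.1262), Prdx3 (-0.0876), Prdx5 (0.0934), Txnrd2 (0.068), Cul3 (-0.0142) and Txnl1 (-0.0071). With thinned reads it turned for Gpx7 (-0.1904) and Txnrd2 (0.0214). None of these 8 values was called. When 1 library was left out the sign turned for 7 genes that were not called, whose values then ranged from -0.0997 to 0.0748 for Gclm, -0.1481 to 0.179 for Gpx7, -0.0059 to 0.0976 for Prdx2, -0.0453 to 0.0522 for Prdx5, -0.0026 to 0.1902 for Srxn1, -0.2733 to 0.0335 for Hmox1 and -0.0166 to 0.1522 for Hmox2. With the replicate number as a block, 3 genes were higher and 11 lower, Txn1 and Gpx1 gained a call and G6pdx lost it. Libraries of the same number did not deviate together in all pairs (r = 0.327, -0.034 and 0.147), so they were taken to share only a number. The smaller depth in wild type leaves few reads for genes near 1 CPM, which limits what can be said of Nqo1, Gpx7 and Glrx.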
